A study of Xenopus laevis with 12 samples.

Results

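The sterol synthesis enzymes ACAT2, FDPS and MSMO1 were followed through the gene models acat2.S, fdps.L and msmo1.1. They are 3 of the 45099 gene models in the tables, were found by their gene symbols, and were all measured in all 12 libraries. The study asked how retinal ganglion cells, the neurons whose axons form the optic nerve, change their translated RNA while they recover from injury in Xenopus laevis, a frog that can regrow this nerve. It used TRAP, in which ribosomes tagged with EGFP are pulled down with their RNA from 1 cell type.

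All TRAP frogs carried EGFP-rpl10a driven by the islet2b promoter, were screened for the transgene by fluorescence, and were F1 offspring of single founder females. They were at least 6 months old, past metamorphosis and 3.5 to 5.0 cm long. The 4 crush libraries came from right eyes whose optic nerve was crushed for 5 seconds at 5 mm from the nerve head, taken at days 1, 3, 7 and 11. The 4 contralateral libraries came from the unoperated left eyes of those frogs on the same days. There were also sham libraries of the right and left eye at day 1, after surgery without a crush, and 1 naive TRAP library from frogs with no surgery. These 7 libraries without a crush (4 contralateral, 2 sham, 1 naive) are called uninjured below. The last library was total RNA of whole retina. Each TRAP library was pooled from 3 biological replicates, so every condition was 1 library, and a difference between frogs cannot be measured within a condition. Per the sample labels the right nerve was crushed, whereas 1 phrase of the design text speaks of the left one; groups follow the sample labels.

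Animal cells build cholesterol from acetyl-CoA through the mevalonate pathway. The cytosolic acetyl-CoA acetyltransferase encoded by ACAT2 joins acetyl-CoA units at the start. FDPS, farnesyl diphosphate synthase, makes the farnesyl diphosphate from which squalene and sterols are built, and which also feeds protein prenylation, dolichol and ubiquinone. MSMO1, methylsterol monooxygenase 1, works late in the pathway, where it oxidises methyl groups at carbon 4 of the sterol ring. These roles are known from mammals and yeast. In mammals, SREBP2, escorted by SCAP, raises transcription of the pathway's genes when membrane sterol is low. ACAT2 here is not the cholesterol-esterifying enzyme that once shared that abbreviation and is now called SOAT2; the table has soat2 models of its own. Xenopus laevis has an ancestral genome duplication, and .L and .S mark its copies of a gene. What the ending of msmo1.1 stands for is not given in the sources used here.

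Library totals ran from 16820571 to 63299998 counts. Levels are given as CPM, read counts relative to the library's total, scaled with edgeR's trimmed mean of M-values (TMM) over the 12 libraries. The 23 gene models of ganglion cell markers summed to 9668.2, 5848.2, 2600.5 and 3614.2 CPM in crushed eyes at days 1, 3, 7 and 11, against 9889.5 to 10522.8 CPM in uninjured TRAP libraries and 1221.4 CPM in total retina. The sum was therefore below the uninjured range in all 4 crush libraries. At day 11, 18 of the 21 models tested fell and 1 rose, beside 23.6% of all genes lower and 21.4% higher. The neurofilament model nefm.L went the other way, with 739.9, 750.5, 862.7 and 1388.9 CPM in crushed eyes, against 650.7 to 871.4 CPM in uninjured ones. The model at 0 in all 4 crush libraries, rbpms.L, had at most 0.116 CPM in uninjured ones. Photoreceptor markers (19 models) summed to 1894.1, 1852.1, 1297.4 and 1373.0 CPM in crushed eyes at days 1, 3, 7 and 11. The sums of days 7 and 11 were below the uninjured range of 1626.9 to 2083.2 CPM. Total retina had 28802.0 CPM. In bulk RNA, fewer cells of a type and less RNA per cell cannot be told apart.

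At day 11 all 3 enzymes were, in TMM-scaled CPM, above every uninjured TRAP library and above total retina, as the plot of levels shows. In the authors' TPM, a length-corrected level described below, msmo1.1 had 10.9 at day 11, under its 13 in total retina. On the earlier days the levels of the 3 enzymes differed in order. acat2.S was above all uninjured libraries on each of the 4 days. In CPM, fdps.L and msmo1.1 were above at day 1, low at day 3 and above again at days 7 and 11. For msmo1.1 at day 7 this did not hold in TPM.

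acat2.S, the enzyme at the start of the pathway, had 34.6, 71.8, 102.4 and 269.9 CPM in crushed eyes at days 1, 3, 7 and 11. In contralateral eyes it had 25.5, 28.4, 28.3 and 27.3 CPM on those days. The right and left sham eyes had 31.8 and 24.8 CPM, the naive library 29.6 CPM and total retina 13.8 CPM. Its level was ordered by day in crushed eyes and lay within a narrow band in the 7 uninjured libraries, 28.0 ± 2.38 CPM (mean and SD over libraries of different surgery and day).

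fdps.L had 50.9, 20.9, 101.8 and 400.4 CPM in crushed eyes at days 1, 3, 7 and 11, behind which stood 2655, 468, 5484 and 15131 counts. Contralateral eyes had 29.3, 33.6, 40.5 and 33.2 CPM. The right and left sham eyes had 39.9 and 26.8 CPM, the naive library 36.4 CPM and total retina 30.7 CPM. The day 3 library was below all uninjured libraries, and those of days 1, 7 and 11 were above them.

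msmo1.1 was the least abundant of the 3, with 6.51, 1.39, 4.75 and 14.4 CPM in crushed eyes at days 1, 3, 7 and 11. These rested on 340, 31, 256 and 543 counts. Contralateral eyes had 0.905, 3.98, 3.6 and 3.64 CPM, the right and left sham eyes 3.90 and 3.84 CPM, the naive library 3.00 CPM and total retina 10.0 CPM. The contralateral library of day 1 stood apart, with 52 counts, and the day 3 crush value lay between it and the other 6 uninjured libraries. At day 7 the crush value was above all uninjured libraries in TMM-scaled CPM, by a smaller margin than at day 1 or 11. In the authors' TPM it was 3.9 at day 7, inside the uninjured range of 1.03 to 4.51.

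**Figure D1:**
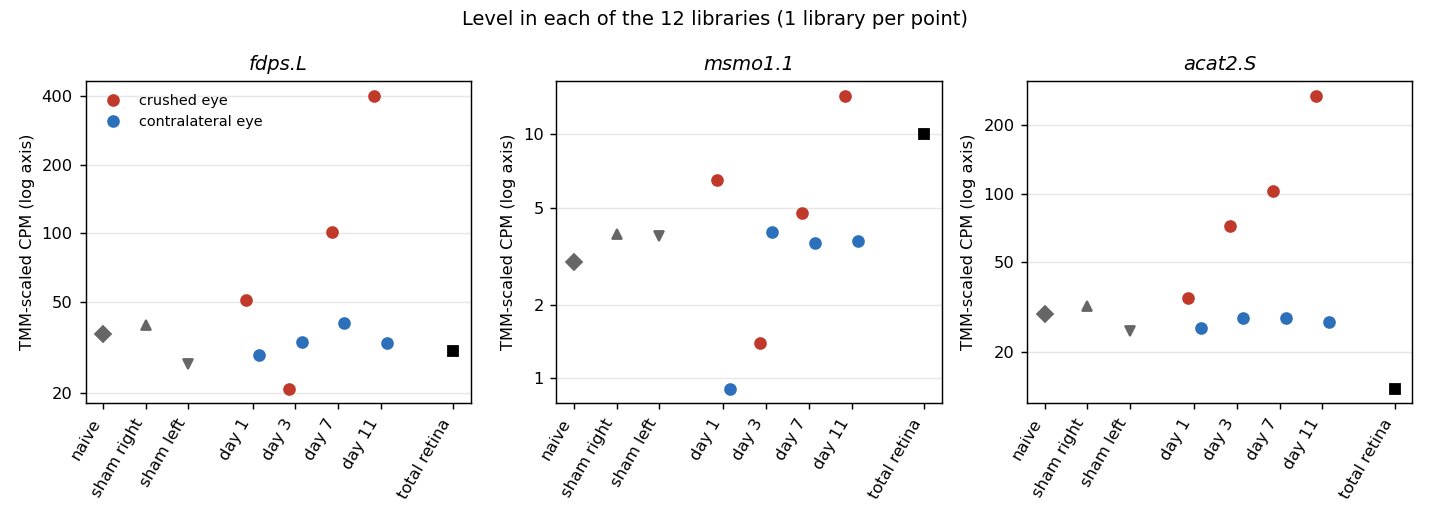
Level of each enzyme in TMM-scaled CPM (log axis, a separate range per panel), 1 point per library, with crushed eyes in red left of contralateral eyes in blue by day, and naive, sham and total retina in grey and black. acat2.S was ordered by day in crushed eyes, from 34.6 to 269.9 CPM, while fdps.L and msmo1.1 dropped at day 3, to 20.9 and 1.39 CPM, before their highest level at day 11.

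Compared between genes per length, as the authors' TPM (a level corrected for transcript length and library size), fdps.L had 343.0, acat2.S 214.2 and msmo1.1 10.9 TPM in the crush library of day 11. Among uninjured libraries the medians were 43.6 TPM for fdps.L, 33.2 TPM for acat2.S and 4.17 TPM for msmo1.1. fdps.L and acat2.S did not overlap msmo1.1 in any uninjured library, and the ranges of fdps.L (32.9 to 50.9 TPM) and acat2.S (28.3 to 36.3 TPM) overlapped each other.

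The design's direct comparison sets the crushed against the contralateral eye of the same frogs. Taken over the 4 days as replicates, with day as a block, none of the 3 passed the quasi-likelihood test of edgeR with Benjamini-Hochberg adjustment over all 26004 genes tested. The test called 10 genes, 0.0385% of those tested, all higher in crushed eyes, while 5395 genes had an unadjusted p under 0.05. The log2 fold was 1.71 ± 0.46 (SE) for acat2.S (adjusted p = 0.223), 1.20 ± 0.66 for fdps.L (adjusted p = 0.323) and 0.99 ± 0.75 for msmo1.1 (adjusted p = 0.462). acat2.S was higher in crushed eyes on 4 of 4 days, and fdps.L and msmo1.1 on 3 of 4. DESeq2, a second count test, called acat2.S higher (log2 fold 1.70, adjusted p = 0.00526), and so did edgeR without day 1 (log2 fold 2.13, adjusted p = 0.0327). Those alternatives called far more genes, DESeq2 6.24% of 26004 and edgeR without day 1 6.25% of 25761 as higher.

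Within single days both eyes of the same frogs can be set side by side, 1 library against 1, without a test. For acat2.S the log2 ratio of crushed over contralateral eye was 0.44, 1.34, 1.85 and 3.30 at days 1, 3, 7 and 11, and the log2 ratio of the right over the left sham eye was 0.35. For fdps.L the ratios were 0.79, -0.68, 1.33 and 3.59, with 0.57 between sham eyes. The day 1 ratios of acat2.S and fdps.L were thus close to those between eyes that had no crush. For msmo1.1 they were 2.78, -1.49, 0.39 and 1.97, with 0.02 between sham eyes; the 95% interval at day 7 ran from 0.00 to 0.82. The intervals cover counting error only. The value of 2.78 at day 1 rests on the low contralateral library, since the crush library itself was 2.01 times the uninjured ones in the fit described further on.

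Whether the ratio between the eyes changed over time was tested as a slope per doubling of the day, again with edgeR. The ratio of acat2.S rose with day, by 0.73 ± 0.14 log2 units per doubling (adjusted p = 0.0112), in a test that called 12.7% of 26004 genes, 5.83% rising and 6.85% falling. With total counts in place of TMM scaling, the rising share of called genes was 25.3%, against 46.0%. Slopes of fdps.L (0.73 ± 0.44, adjusted p = 0.376) and msmo1.1 (-0.26 ± 0.53, adjusted p = 0.803) did not pass.

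These slopes depended on the ends of the series. Without day 11 the slope of acat2.S was 0.49 (adjusted p = 0.146). Without day 1 all 3 enzymes rose: fdps.L by 2.19 ± 0.23 per doubling (adjusted p = 3.69e-05), msmo1.1 by 1.83 ± 0.41 (adjusted p = 0.00468) and acat2.S by 0.96 ± 0.23 (adjusted p = 0.0115). That fit called 6.10% of 25761 genes as rising and 7.88% as falling, and has 1 library of each eye on 3 days.

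A value with an error for each day came from a fit of 11 TRAP libraries, which set the crush library of a day against the 7 uninjured ones. The lone crush library was assumed to vary like those 7, and the 4 contrasts share them. The p-values therefore measure a difference from the spread among uninjured pools, which may be technical as well as biological.

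At day 1 none of the 3 enzymes passed, in a comparison that called 7 of 26977 genes (0.0259%), all higher, with 1056 at an unadjusted p under 0.05. The log2 fold was 1.01 ± 0.47 for msmo1.1, 0.58 ± 0.17 for fdps.L and 0.31 ± 0.14 for acat2.S (edgeR adjusted p = 1, 0.789 and 1). At day 3 the enzymes parted: acat2.S rose by 1.35 ± 0.13 (adjusted p = 1.32e-07), and fdps.L fell by 0.72 on the log2 scale (SE 0.19, adjusted p = 0.00987). The test called 23.1% of genes, 11.9% higher and 11.2% lower. limma-voom, another count model, gave fdps.L -0.65 (adjusted p = 0.119). msmo1.1 was at -1.24 ± 0.62 (adjusted p = 0.17), and at -1.41 (adjusted p = 0.021) without the contralateral library of day 1.

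At day 7, where 43.0% of genes were called, 21.6% higher and 21.4% lower, acat2.S rose by 1.83 ± 0.12 (adjusted p = 1.05e-10) and fdps.L by 1.53 ± 0.15 (adjusted p = 7.39e-08), while msmo1.1 stood at 0.51 ± 0.49 (adjusted p = 0.45). At day 11 all 3 rose. The log2 fold was 3.53 ± 0.14 for fdps.L, an 11.5-fold level (adjusted p = 6.17e-14), 3.25 ± 0.11 for acat2.S, a 9.49-fold level (adjusted p = 4.62e-15), and 2.12 ± 0.43 for msmo1.1, a 4.35-fold level (adjusted p = 0.00045). Calls were common at this day, with 45.0% of 26977 genes in all, 21.4% higher and 23.6% lower. By fold, fdps.L ranked 342nd, acat2.S 431st and msmo1.1 1210th from the highest. With total counts as scaling, the share of called genes that were higher was 37.4% at day 7 and 32.1% at day 11, against 50.2% and 47.6%, and the median of all genes moved by -0.23 and -0.31. No call of the 3 enzymes at these days changed with it.

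Steps between successive crush libraries were tested in the same fit, a contrast added after the data were seen. Between days 3 and 1, fdps.L fell by 1.29 on the log2 scale (SE 0.24, adjusted p = 0.00111) and acat2.S rose by 1.04 ± 0.19 (adjusted p = 0.00081), in a comparison that called 12.9% of genes, 6.92% higher and 6.01% lower. msmo1.1 was at -2.24 ± 0.74 (adjusted p = 0.0548). Between days 7 and 3, fdps.L rose by 2.25 ± 0.24 (adjusted p = 1.07e-06), with 25.5% of genes called, 12.0% higher and 13.5% lower. acat2.S was at 0.48 ± 0.19 (adjusted p = 0.0671) and msmo1.1 at 1.74 ± 0.74 (adjusted p = 0.096) in that step.

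Between days 11 and 7 fewer genes were called, 2.12% of 26977, with 0.890% higher and 1.23% lower, and fdps.L and acat2.S were among those that rose. fdps.L rose by 1.99 ± 0.23 (adjusted p = 0.000118) and ranked 17th of all genes by p. acat2.S rose by 1.42 ± 0.19 (adjusted p = 0.000272) and ranked 31st. msmo1.1 stood at 1.61 ± 0.68 (adjusted p = 0.299). With total counts as scaling, 27.8% of the called genes were higher in this step, against 41.9%, and 33.3% against 47.1% in the step between days 7 and 3.

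**Figure D2:**
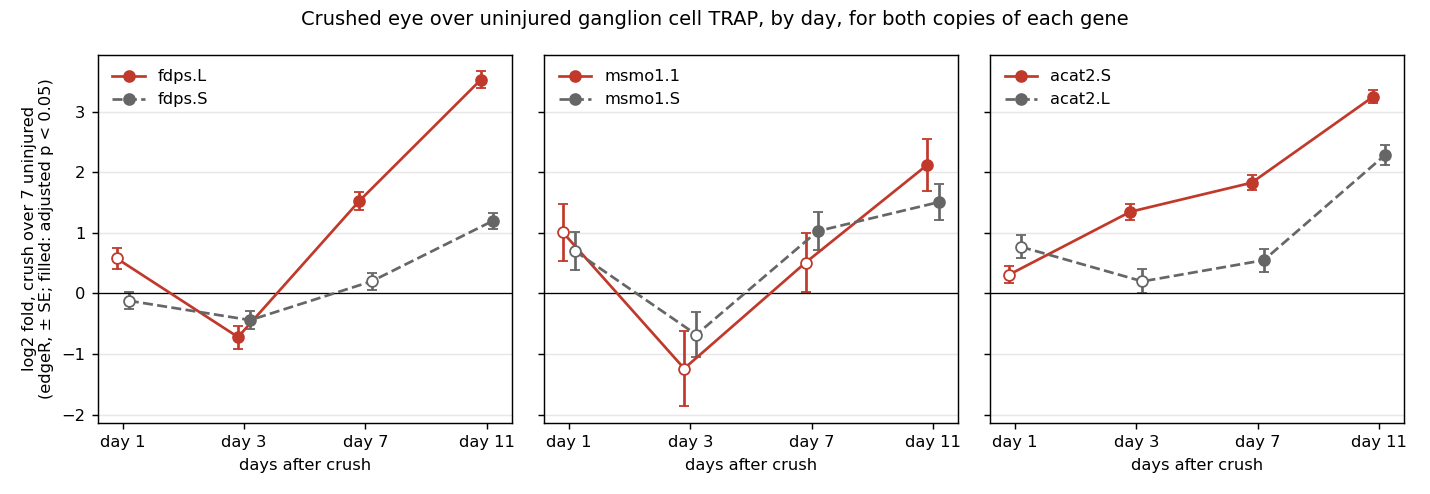
Log2 fold of the crush library of each day over 7 uninjured TRAP libraries, for each enzyme (red) and its other copy (grey). Bars give an SE derived from the edgeR test statistic, and filled points had an adjusted p under 0.05. fdps.L reached 3.53 at day 11 and fdps.S 1.20, and acat2.S passed at days 3, 7 and 11.

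The other copy of each gene gives a second reading of the same enzyme, with the limit that the authors' counting can split reads between near-identical copies. fdps.S had 57.0, 46.2, 73.4 and 144.8 CPM in crushed eyes at days 1, 3, 7 and 11, against 57.1 to 72.3 CPM in uninjured ones. It fell at day 3, by 0.44 on the log2 scale, and rose by 1.20 at day 11 (edgeR adjusted p = 0.0385 and 1.16e-07). acat2.L had 45.5, 30.9, 40.3 and 133.5 CPM in crushed eyes, against 21.4 to 35.2 CPM in uninjured ones. It rose by 0.55 at day 7 and by 2.29 at day 11 (adjusted p = 0.0275 and 5.56e-10), and at day 3 it stood at 0.20. With total counts the day 7 value was 0.31 (adjusted p = 0.219). msmo1.S had 15.6, 6.04, 20.3 and 28.0 CPM in crushed eyes, against 5.46 to 12.8 CPM in uninjured ones. It rose by 1.03 at day 7 and by 1.51 at day 11 (adjusted p = 0.01 and 0.0003). At day 11 all 6 models of the 3 enzymes were thus higher, beside 21.4% of all genes.

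The balance between copies shifted for fdps and acat2 in the TPM values. The ratio of fdps.L to fdps.S was 1.01, 0.512, 1.57 and 3.13 in crushed eyes at days 1, 3, 7 and 11, against 0.419 to 0.756 in uninjured ones, so that day 3 lay inside the uninjured range and the other days above it. acat2.S to acat2.L was 0.803, 2.45, 2.69 and 2.14 in crushed eyes, against 0.937 to 1.46 in uninjured ones: below the range at day 1 and above it later. msmo1.1 to msmo1.S was 0.547, 0.301, 0.307 and 0.673 in crushed eyes, all inside the uninjured range of 0.152 to 0.878. When the counts of both copies were summed, the log2 difference of acat2 between days 3 and 1 was 0.38 (adjusted p = 0.213).

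**Figure D3:**
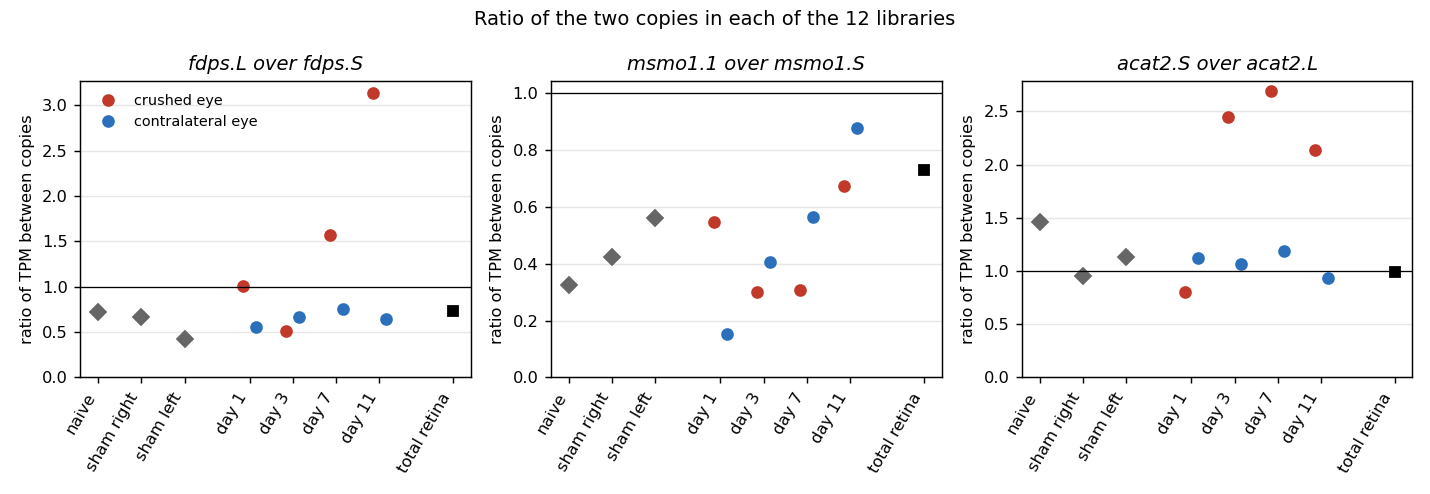
Ratio of the TPM values of the copies of each gene in each library (linear axes with a separate range per panel; the black line marks equal levels), with crushed eyes in red left of contralateral eyes in blue. fdps.L over fdps.S reached 3.13 at day 11 in the crushed eye and stayed at or below 0.756 in uninjured libraries.

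The rest of the pathway was read from a list of 22 sterol synthesis enzymes and helpers. Of these names 13 matched a symbol, giving 22 gene models including the 6 above, of which 21 passed the filter on low counts; names without a match, such as hmgcs1, mvd and fdft1, were not analysed here. At day 11, 19 of the 21 rose and 0 fell, beside 21.4% of all genes called higher; the list's median log2 fold was 1.45, against -0.12 over all genes tested. With total counts, 18 rose and 1, idi1.S, fell, beside 14.9% of all genes called higher and 31.7% lower. Without acat2.S, fdps.L and msmo1.1, the list's TMM-scaled medians were 0.44, -0.54, 0.39 and 1.41 at days 1, 3, 7 and 11. Early steps were represented at day 11 by mvk.L, mevalonate kinase, at 1.43, and idi1.L, an isopentenyl diphosphate isomerase, at 1.04. Downstream of FDPS, sqle.L and sqle.S, which encode squalene epoxidase, rose by 2.21 and 1.06, and lss.S, lanosterol synthase, by 1.86. Of the enzymes that turn lanosterol into cholesterol, cyp51a1.S rose by 1.76, nsdhl.L by 1.61 and tm7sf2.L by 1.45. idi1.S (-0.33, adjusted p = 0.0773) and hsd17b7.S (0.50, adjusted p = 0.36) did not pass.

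On earlier days the list was split. At day 1 none passed in edgeR, though 19 of 21 log2 folds were above 0, with a median of 0.47 against -0.01 for all genes. DESeq2 and limma-voom each called 1 of the list higher, cyp51a1.L, the lanosterol demethylase (0.87 and 0.94; adjusted p = 0.0445 and 0.0314), where they called 0.0630% and 0.0741% of all genes higher. At day 3, 8 of 21 fell, beside 11.2% of all genes, and acat2.S alone rose, with a list median of -0.65 against -0.06. Besides fdps.L and fdps.S, those that fell included idi1.L (-1.80), idi1.S (-0.71), mvk.L (-0.95) and c14orf1.L (-0.98), the last named ERG28 in mammals. limma-voom called 2 lower, beside 5.87% of all genes, and edgeR against the 4 contralateral libraries alone called 5, beside 9.50%. At day 7, 8 of 21 rose, beside 21.6% of all genes, and idi1.L and idi1.S fell, by 1.11 and 0.70, with a median of 0.51 against -0.08.

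idi1.L shows the dip in its levels. It had 79.6, 16.7, 27.6 and 120.7 CPM in crushed eyes at days 1, 3, 7 and 11, against 45.9 to 72.2 CPM in uninjured ones. The crush libraries of days 1 and 11 were above the uninjured range and those of days 3 and 7 below it.

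Between days 3 and 1, 9 of the 21 fell, beside 6.01% of all genes, and acat2.S alone rose, with a median of -1.01. All 21 log2 folds were above 0 between days 7 and 3, where 10 rose, beside 12.0% of all genes (6 with total counts, beside 8.63%). They were above 0 again between days 11 and 7, where 8 rose, beside 0.890% of all genes, and the median was 1.20 against -0.05. Without acat2.S, fdps.L and msmo1.1, the median of the step between days 11 and 7 was 0.95. Over all 4 days, the ratio between the eyes rose with day for 1 of the 21, acat2.S, beside 5.83% of all genes. Without day 1 it rose for 17 of the 21, acat2.S, fdps.L and msmo1.1 among them, beside 6.10%. Without day 11, 0 of the 21 rose and 1 fell, and without day 3 or day 7, 1 rose.

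**Figure D4:**
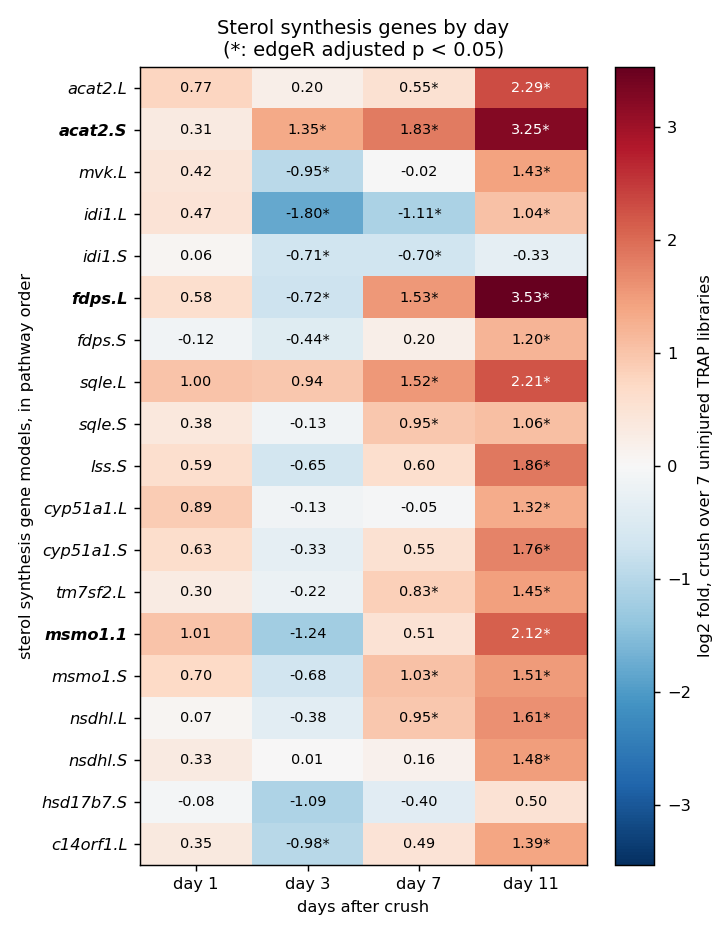
Log2 fold of the crush library of each day over 7 uninjured TRAP libraries for 19 of the 21 sterol synthesis gene models tested, in pathway order, with the members in bold and a star where the edgeR adjusted p was under 0.05. Of the models drawn, 17 have a star on the higher side at day 11, and at day 3, 6 have a star on the lower side and acat2.S stands at 1.35.

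Of the known regulators, 14 gene models were tested, and 0 passed at day 1, 6 rose at day 3, 6 rose and 1 fell at day 7, and 7 rose and 2 fell at day 11. The shares of all genes called higher were 11.9%, 21.6% and 21.4% at days 3, 7 and 11, and 23.6% were lower at day 11. With total counts, 4 rose and 1 fell at day 7, beside 16.2% higher and 27.1% lower of all genes. At day 11, with total counts, 3 of the 14 rose and 5 fell, near the shares of all genes, 14.9% higher and 31.7% lower. The copies of srebf1, which encodes the relative of SREBP2 that in mammals acts mainly on fatty acid genes, were at 0.14, 1.51, 1.92 and 1.94 (srebf1.L) and -0.09, 1.23, 1.68 and 1.91 (srebf1.S) on days 1, 3, 7 and 11, and passed on the last 3. scap.L, the sterol-sensing escort, rose by 1.33, 1.49 and 1.07 at days 3, 7 and 11. They were high at day 3, when 8 of the synthesis models were low. The other copy, scap.S, had 31, 42.8, 37.9 and 29.2 CPM in crushed eyes at days 1, 3, 7 and 11. Uninjured libraries had 23.4 to 34.3 CPM of scap.S, so that its day 11 level lay inside their range. In TPM, scap.S had 5.71 at day 11, below the uninjured range of 6.83 to 9.99. The copies of srebf2, the gene of SREBP2, were named after their values were seen. In crushed eyes srebf2.S was highest at day 1, with 45.8, 34, 43 and 44.3 CPM at days 1, 3, 7 and 11. Uninjured libraries had 27.9 to 34.4 CPM of it. In TPM it had 27.1, 18.9, 17.9 and 17.1 on those days, against 16 to 19 in uninjured libraries. Only day 1 was above that TPM range. srebf2.S rose at days 7 and 11, by 0.42 and 0.48 (0.19 and 0.17 with total counts, adjusted p = 0.366 and 0.409), and srebf2.L rose by 0.90 at day 3 and fell by 0.87 at day 11. srebf1.L, srebf1.S, srebf2.S and scap.L were lower in uninjured TRAP RNA than in total retina, at -1.99, -2.90, -1.72 and -1.28.

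Genes of sterol uptake, transport and storage gave 20 tested models, of which 0, 3, 8 and 7 rose at days 1, 3, 7 and 11 and 0, 0, 1 and 0 fell. The count at day 3 is near the background of 11.9% of all genes higher; at days 7 and 11 the background was 21.6% and 21.4%. With total counts, 6 rose and 3 fell at day 7, and 7 rose and 2 fell at day 11. Under that scaling 16.2% of all genes were higher and 27.1% lower at day 7, and 14.9% and 31.7% at day 11. npc2.S, a carrier of cholesterol out of lysosomes, rose by 1.91 at day 7 and 2.35 at day 11. lipa.L, the lysosomal acid lipase, rose by 1.47 and 1.62. soat1.S, which in mammals esterifies cholesterol for storage, rose by 1.17, 1.59 and 1.12 at days 3, 7 and 11. apoe.L, a lipid carrier that glia of mammals release, had 6.62 CPM in the crushed eye at day 11, against 0 to 0.476 CPM in uninjured TRAP libraries and 7.97 CPM in total retina.

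Farnesyl diphosphate, the product of FDPS, also leaves the sterol route. Of 17 tested models of these isoprenoid branches, 0 passed at day 1, 1 rose and 1 fell at day 3, 7 rose at day 7 and 8 rose at day 11, beside 21.6% and 21.4% of all genes higher. With total counts, 5 and 4 rose, beside 16.2% and 14.9%. ggps1.L, which lengthens farnesyl diphosphate, rose by 1.12 at day 7 and 1.35 at day 11. fntb.L, the beta subunit of protein farnesyltransferase, rose by 1.75 and 1.81, and rabggta.L, a subunit of the enzyme that prenylates Rab proteins, by 0.81 and 0.82. Of 11 tested models of acetyl-CoA and fatty acid enzymes, 0 passed at days 1 and 3, 3 rose and 1 fell at day 7, and 2 rose and 1 fell at day 11, a higher share near the 21.4% of all genes. With total counts this turned to 0 higher and 4 lower at day 7, and to 1 higher and 2 lower at day 11. Those called at day 11 were scd.L, a fatty acid desaturase, at 1.08, acat1.S, the mitochondrial relative of ACAT2, at 0.42 (0.11 with total counts, adjusted p = 0.573), and elovl6.S, a fatty acid elongase, at -0.49. Of all genes, 27.1% and 31.7% were lower at days 7 and 11 with total counts. In the uptake, isoprenoid and fatty acid lists the medians at day 11 were 0.61, 0.61 and -0.04, against 1.45 for synthesis and -0.12 for all genes.

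The enzymes differed in their level in TRAP RNA of eyes without a crush relative to total retina RNA. Uninjured TRAP RNA was compared with total retina, which is 1 library and was assumed to vary like the 7. The test called 42.0% of 30180 genes, 23.3% higher in TRAP RNA and 18.7% lower. acat2.S was higher in TRAP RNA by 1.05 ± 0.20 (edgeR adjusted p = 0.000119), msmo1.1 was lower, at -1.58 ± 0.46 (adjusted p = 0.00697), and fdps.L stood at 0.19 ± 0.20 (adjusted p = 0.485). The other copies had the same sign: acat2.L 0.89, fdps.S 0.42 and msmo1.S -0.86 (adjusted p = 0.00355, 0.0271 and 0.032); fdps.S was at 0.26 (adjusted p = 0.159) with total counts. Of the 21 synthesis models, 4 were higher and 4 lower in TRAP RNA. With total counts, 47.5% of called genes were higher, against 55.4%.

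Markers of Mueller glia and astrocytes rose late as a sum, mainly through vim.L. Their 16 models summed to 289.8, 252.8, 384.8 and 693.1 CPM in crushed eyes at days 1, 3, 7 and 11, against 239.8 to 311.8 CPM in uninjured TRAP libraries and 1581.6 CPM in total retina. Of the 12 tested at day 11, 6 rose and 2 fell, beside 21.4% of all genes higher and 23.6% lower. vim.2.L and vim.2.S were at 0 in all crush libraries. The excess of the sum over the uninjured range at days 7 and 11 lay in vim.L. That model had 15.7, 26.7, 197.6 and 404.4 CPM in crushed eyes, against 5.15 to 11 CPM in uninjured ones and 34.5 CPM in total retina. ca2.L had 41.6 CPM in the crushed eye at day 11, against 87.4 to 107.9 CPM in uninjured ones. sox9.1 had 45.7 CPM there, against 16.1 to 24.4 CPM. fdps.L and acat2.S at day 11, at 400.4 and 269.9 CPM, were above their own total retina levels of 30.7 and 13.8 CPM. msmo1.1, at 14.4 CPM, was nearer to its total retina level of 10.0 CPM. Other marker lists moved too. Endothelial and blood markers (10 models) summed to 43.3, 82.5, 95.4 and 37.2 CPM in crushed eyes at days 1, 3, 7 and 11. The sum was 25.3 to 37.9 CPM in uninjured ones. Most of the sums at days 3 and 7 was cldn5.L, at 58.8 and 76.1 CPM, against 12.8 to 19.5 CPM in uninjured ones. cldn5.S was above its uninjured range of 0.572 to 2.07 CPM at days 7 and 11, at 5.89 and 4.79 CPM. hba1.L stayed inside its range of 2.71 to 12.3 CPM at days 3 and 7, at 10.9 and 6.46 CPM. Oligodendrocyte and Schwann cell markers (8 models) summed to 634.9, 368.1, 116.8 and 76.7 CPM in crushed eyes, against 578.0 to 733.7 CPM in uninjured ones. Most of that sum was mpz.L, with 623.5, 358.0, 106.3 and 67.7 CPM in crushed eyes. mpz.L had 559.9 to 717.3 CPM in uninjured libraries and 146.5 CPM in total retina. mbp.L stayed inside its uninjured range on all 4 days, and mbp.S was below its own range at day 11 only. Bipolar cell markers (10 models) summed to 243.2, 140.4, 60.1 and 76.0 CPM in crushed eyes, against 196.8 to 246.0 CPM in uninjured ones. The oligodendrocyte and Schwann cell sum and the bipolar sum were both below their uninjured ranges from day 3 on. The part of these marker changes in the results was not tested.

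Across the 11 TRAP libraries, log2 CPM of fdps.L and acat2.S had a Pearson correlation of 0.838, fdps.L and msmo1.1 of 0.782, and msmo1.1 and acat2.S of 0.522. The libraries share frogs, days and scaling, and the day 11 crush library is the highest point of each, so these are descriptions. Among 11448 named genes with a mean of at least 5 CPM, the pattern most like acat2.S was that of rbm6.S (0.984), followed by the tubulin gene tubb2b.L (0.984), rbm6.L, tpt1.L and the histone methyltransferase gene ezh2.L (0.981, 0.981 and 0.978). Most like fdps.L were rhoa.2.S, a small GTPase gene (0.971), the histone variant gene h2afz.S (0.968), LOC101734365.L (0.968), rundc3a.L (0.961) and gsn.L, which encodes the actin-severing protein gelsolin (0.959). tubb2b.L had 2720.0 CPM in the crushed eye at day 11, against a median of 272.3 CPM in uninjured libraries. msmo1.1 had weaker matches, LOC101732576.L (0.899), nudt19.L (0.877), skiv2l.L (0.875), carkd-like.L (0.872) and vrk1.L (0.860). No gene was on more than 1 of these lists of 5.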

How the data were processed

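Poly(A) RNA libraries of 12 samples were used. The submitters' processing notes name RSEM 1.2.21, Bowtie2 2.2.5 and Trimmomatic 0.33; the build is not given in the sources used here. Per the file headers, the authors' tables hold for each gene model an expected count (reads estimated by RSEM) and a TPM value. Of the 45099 gene models, 23397 have no symbol; they stayed in all tests. Rounding the expected counts changed each library total by at most 0.000797%. The symbols msmo1.1 and acat2.S are absent from the RefSeq table of Xenopus_laevis_v10.1, used here to look up names.

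Tests used edgeR 4.0.16 in R 4.3.3 (robust quasi-likelihood, TMM, filterByExpr) on all genes, with Benjamini-Hochberg adjustment and a threshold of 0.05. Residual degrees of freedom were 3 for crush against contralateral with day as a block, 2 for the slope with log2 day and 6 for the 11 TRAP libraries. The crush against contralateral fit and the slope fit had fewer when a day was left out. Days were paired because both eyes came from the same frogs, per the labels' protocols; same-day deviations from the group means correlated at 0.0834, 0.0595, 0.0465 and 0.0430 over 26004 genes. Each SE of an edgeR log2 fold or slope was derived as its absolute value divided by the square root of the test's F statistic. Single-day ratios add a prior count of 2. Alternatives were other scaling, no filter, DESeq2 1.42.0, limma-voom (limma 3.58.1), summed .L and .S copies, no block and left-out libraries. msmo1.1 carries neither ending, so its values under summed copies are not taken as sums. The scripts were tested on simulated counts.

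The members, lists, tests and naming rule were chosen with earlier results of these data known. From each list, at most the 4 called genes of smallest p in each direction are named per comparison, and synthesis genes wherever they help; for genes like a member, the 5 highest Pearson correlations.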

Additional observations from a re-analysis of the deposited data

Results flagged for a closer look

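Among 9 groups of libraries checked for a sample apart, where chance gives about 1 in 20, msmo1.1 in the contralateral library of day 1 (0.905 CPM, 52 counts) stood apart. Its gap to the next library was 0.68 of the range of the 7 uninjured TRAP libraries, beyond the limit of 0.568, and 0.878 of that of the 4 contralateral libraries, beyond 0.829. In that library fdps.L and acat2.S had 29.3 and 25.5 CPM, within the range of the other uninjured libraries. Without it, msmo1.1 at day 3 had a log2 fold of -1.41 (edgeR adjusted p = 0.021), against -1.24 (adjusted p = 0.17) with it.

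The ratio of crushed to contralateral eye of acat2.S differed between days, with a slope of 0.73 log2 units per doubling of the day (edgeR adjusted p = 0.0112), and was above 0 on 4 of 4 days.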

How the results depend on the processing

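Of 206 values of the 3 enzymes' tests under alternatives other than leaving out a library, 199 kept their direction and side of the threshold. Single-day ratios have no test, and 40 of 45 stayed inside the 95% counting interval of the main ratio. The ratios outside it, given below, kept their direction. Over the 4 days together, acat2.S had 1.70 and passed with DESeq2 (1.20 to 2.13 with a day left out), and 10 genes called became 6 with total counts, 25 with no filter, 3080 with DESeq2 and 0 to 2678 with a day left out. Day pairs both eyes; with no replicate block 0 genes were called (5450 at an unadjusted p under 0.05), the log2 folds of acat2.S, fdps.L and msmo1.1 were 2.12, 2.06 and 1.15, and no call of these 3 changed, in the slope test either. With a day left out, slopes ran from 0.49 to 0.96 for acat2.S, 0.12 to 2.19 for fdps.L and -0.97 to 1.83 for msmo1.1, whose sign turned to 1.83 without day 1; slope calls ran from 1233 to 5163 genes. At day 1, 7 genes called became 14 with no filter, 28 with DESeq2, 21 with limma-voom and 2 to 13 with a library left out. At day 3, fdps.L had -0.65 with limma-voom and did not pass, and msmo1.1 -1.41 to -1.17 with a library left out. Between days 3 and 1, msmo1.1 passed with total counts (-2.31), no filter (-2.25) and DESeq2 (-2.23), ranging from -2.24 to -2.22 with a library left out, and acat2 with summed copies (0.38) did not. Between days 7 and 3, acat2.S passed with DESeq2 (0.50), and msmo1.1 ran from 1.74 to 1.75 with a library left out, passing without the contralateral library of day 1. Between days 11 and 7, 573 genes called became 364 with limma-voom and 346 against contralateral libraries alone. With total counts, single-day log2 ratios were 1.04 and 3.21 for fdps.L at days 7 and 11, 1.59 for msmo1.1 at day 11, and 1.56 and 2.92 for acat2.S at days 7 and 11. The cause of these changes was not tested. Depth limits msmo1.1 most, with 31 counts in the day 3 crush library and 52 in the contralateral library of day 1. With 1 pooled library per condition, no test here measures the spread between frogs, and copies of a gene may share reads.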
